A study of Mus musculus with 10 samples.

Results

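The proteasome is the large protease of the cytosol and nucleus that degrades proteins tagged with ubiquitin. Its barrel-shaped 20S core holds the proteolytic sites inside rings of alpha and beta subunits, and its 19S regulatory particle, made of a base with ATPases and a lid with a deubiquitinating enzyme, recognises, unfolds and feeds in the substrates. Other caps (the Psme activators), interferon-inducible beta subunits (the immunoproteasome) and dedicated assembly chaperones change or build the particle, and in neurons its activity is known to act on synaptic proteins. Genes were taken as members by symbol alone: every mouse gene whose symbol begins with Psma, Psmb, Psmc, Psmd, Psme or Psmg followed by a digit. That rule found 46 of the 13661 genes in the authors' deposited table. They comprised 7 alpha subunits, 7 constitutive beta subunits, 2 immunoproteasome subunits, 9 base subunits, 8 lid subunits, 4 activators, 7 assembly chaperones and 2 genes for interacting proteins, Psmc3ip and Psme3ip1, which are not proteasome subunits.

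The comparison was between the cortex of male mice carrying a Chd8 knock-in allele (KI, 5 libraries) and the cortex of male wild-type mice (WT, 5 libraries), all at 8 weeks of age. CHD8 is a chromatin remodeller mutated in autism, and the title of the study presents the KI as a duplication model of its gene. The sources used here do not give the construct, its promoter, its zygosity or the strain and litters of the mice. RNA with poly(A) tails was sequenced, and each library is labelled as coming from 1 male.

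Only the authors' deposited table of this 1 comparison was analysed, which gives for each gene 1 mean normalised count over all libraries (a count scaled for library size), 1 log2 fold change and the standard error (SE) of that change. Values per library, their depth and the mean of each group were not analysed here, so no SD over animals can be given and no overlap between groups can be read. The file does not say which group is the numerator. KI was taken as the numerator since this makes Chd8 the higher one in KI (1.40-fold in the authors' deposited table, 95% interval 1.22 to 1.61, DESeq2 adjusted p = 0.0044). All signs below rest on that choice. Over all genes, 10 of 13660 passed an adjusted p of 0.05, and mean normalised counts started at 24.4. Cortical excitatory neuron markers were all among the genes tested (11 of 11, mean normalised counts from 682 to 62823.5). Of these, 10 of 11 were above 0 on the log2 scale (median 0.044), while 5 of 6 inhibitory neuron markers were below 0 (median -0.059). Markers of neighbouring tissues had negative medians on the log2 scale. These were -0.40 for thalamus (6 of 7 markers analysed, 4 below 0), -0.28 for meninges (7 markers) and -0.26 for choroid plexus (6 markers). An adjusted p of 0.05 was passed by 2 thalamus markers, 1 meninges marker and 0 choroid plexus markers. All 7 oligodendrocyte markers were below 0 (median -0.070). Astrocyte markers had 3 of 6 below 0 (median -0.0038), and endothelium markers 2 of 6 (median 0.026). The part of these tissues and cells in the proteasome values was not tested.

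A further 10 symbols of the RefSeq annotation meet the name rule and were not analysed here. They are the protein-coding Psma8 and Psmb11, known from testis and thymus, the immunoproteasome subunit Psmb9, Psme2b, and 6 pseudogenes (Psma5-ps, Psmb5-ps, Psmb6-ps, Psmb6-ps2, Psmb7-ps1 and Psmb7-ps2). The sources used here do not say whether reads of such copies were split from their parent genes, so values of Psma5, Psmb5, Psmb6, Psmb7 and Psme2 are uncertain to that extent.

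The stretches before the members' start sites are shown first, because proteasome genes are known to be regulated together through shared promoter elements. RefSeq promoters of build GRCm38.p6 were matched for 39 of the 46 members, and the 250 bases before the start were searched on both strands. The antioxidant response element TGACNNNGC, bound by NFE2L1, the transcription factor that raises proteasome genes when the proteasome is inhibited, was found in 5 of 39 members (12.8%) and in 11.8% of the 10703 promoters of genes in the table. The matches with up to 10 bases on either side follow, with the motif in capitals.
Psmb5, chr14:54618024-54618052, minus strand: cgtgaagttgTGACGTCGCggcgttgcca
Psmb6, chr11:70525338-70525356, plus strand: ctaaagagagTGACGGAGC
Psmc6, chr14:45329587-45329615, minus strand: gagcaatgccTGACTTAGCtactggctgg
Psmd12, chr11:107479278-107479299, minus strand: ggggcaaatgTGACACAGCaga
Psmd9, chr5:123228149-123228177, plus strand: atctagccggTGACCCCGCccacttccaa
The first of these lies 47 bases before the start of Psmb5, and the one of Psmb6 begins 9 bases before its start. The matches of Psmc6 and Psmd12 lie 227 and 247 bases before the start. No match in this window says only that these letters are not there.

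The ETS-type sequence CCGGAAG, bound by factors such as ELK1 and GABPA, was searched as a second motif. It stood in 12 of 39 member promoters (30.8%), against 13.1% of promoters of genes in the table. There were matches in 8 of 14 promoters of base and lid subunits, in 0 of 11 promoters of core subunits and in 2 of 4 promoters of activators (Psme3 and Psme4). Matches also stood in 1 of 6 assembly promoters (Psmg1) and in Psmc3ip, and in 0 of 2 immunoproteasome promoters. The 8 matches of 19S genes are shown, read so that the motif runs as spelled, with the motif in capitals.
Psmc1, chr12:100110164-100110190, minus strand: atcgccaccgCCGGAAGtgcatccacc
Psmc2, chr5:21785181-21785207, minus strand: gagccccatcCCGGAAGtgctcactgg
Psmc6, chr14:45329714-45329740, plus strand: ggcgggccagCCGGAAGgggcggagcc
Psmd2, chr16:20651616-20651642, minus strand: gtcctccagaCCGGAAGcgccctgcgg
Psmd4, chr3:95042723-95042749, minus strand: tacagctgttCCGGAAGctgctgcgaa
Psmd11, chr11:80428594-80428614, minus strand: acacCCGGAAGacccgccctc
Psmd12, chr11:107479501-107479527, minus strand: gtcactcgcaCCGGAAGtcgcccgctc
Psmd6, chr14:14120974-14121000, minus strand: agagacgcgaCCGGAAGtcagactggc
All 14 matches in members, which include 3 in Psmc3ip, began within 125 bases of the start. The CCAAT box, searched as CCAAT on both strands and bound by NF-Y, stood in 14 of 39 member promoters (35.9%) and in 36.0% of promoters of genes in the table. By group it was found in 6 of 11 core, 4 of 14 base and lid, 1 of 4 activator, 1 of 6 assembly and 0 of 2 immunoproteasome promoters. It also stood in 2 of 2 promoters of the interacting-protein genes. The core count includes Psma3, whose promoter stretch lies inside the annotated gene. Matches of the 3 motifs did not overlap one another in any member. These shares describe the sequences and were not tested.

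**Figure D1:**
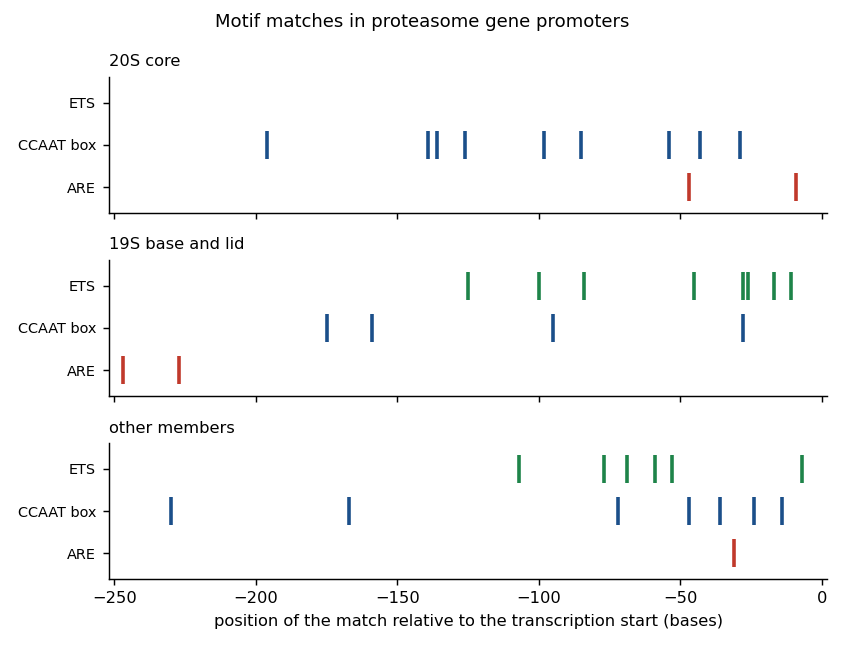
Positions of motif matches in the 250 bases before the start site of 39 proteasome genes, in bases relative to the start (x axis), with 1 mark per match and 1 row per motif (ARE, CCAAT box, ETS), for core, base and lid, and other members. ETS matches are absent from the core panel and lie within 125 bases of the start in the others.

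No proteasome gene passed an adjusted p of 0.05 in KI against WT cortex. Of the 46 members, 0 passed the DESeq2 Wald test in the authors' deposited table, where 0.0732% of 13660 genes passed, and 1 member (2.17% of 46) had an unadjusted p under 0.05, where 3.22% of all genes had one. That member was Psmg4, a chaperone of core assembly. Most members lay slightly below 0: 32 of 46 (69.6%) had a negative log2 fold change, against 48.4% of all genes, with a median of -0.047 over members and 0.0025 over all genes. With the trend of fold change on transcript length over all genes removed, the members' median was -0.025. The members ranged from -0.45 for Psmg4 to 0.062 for Psme4, the large nuclear activator. Members are not replicates of one another and their errors may be shared, so these counts carry no test.

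The data were precise enough to bound most members. The 95% interval lay within 0.25 of 0 on the log2 scale, a 1.19-fold change, for 36 of 46 members, against 54.9% of all genes. For the 31 structural subunits of core, base and lid it did so for 29, and the other 2 were Psmb4 and Psmb5. Precision was lowest at the lowest counts. The 29 members whose mean normalised counts were 1000 or more had SEs from 0.040 to 0.093. The 9 members from 300 to under 1000 had SEs within that range, from 0.058 to 0.085. The 8 members under 300, which include all 4 Psmg genes and Psmb8, had SEs from 0.10 to 0.26. The spread of Wald scores (log2 fold change over its SE) was an SD of 0.764 over members, against 0.897 over all genes.

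**Figure D2:**
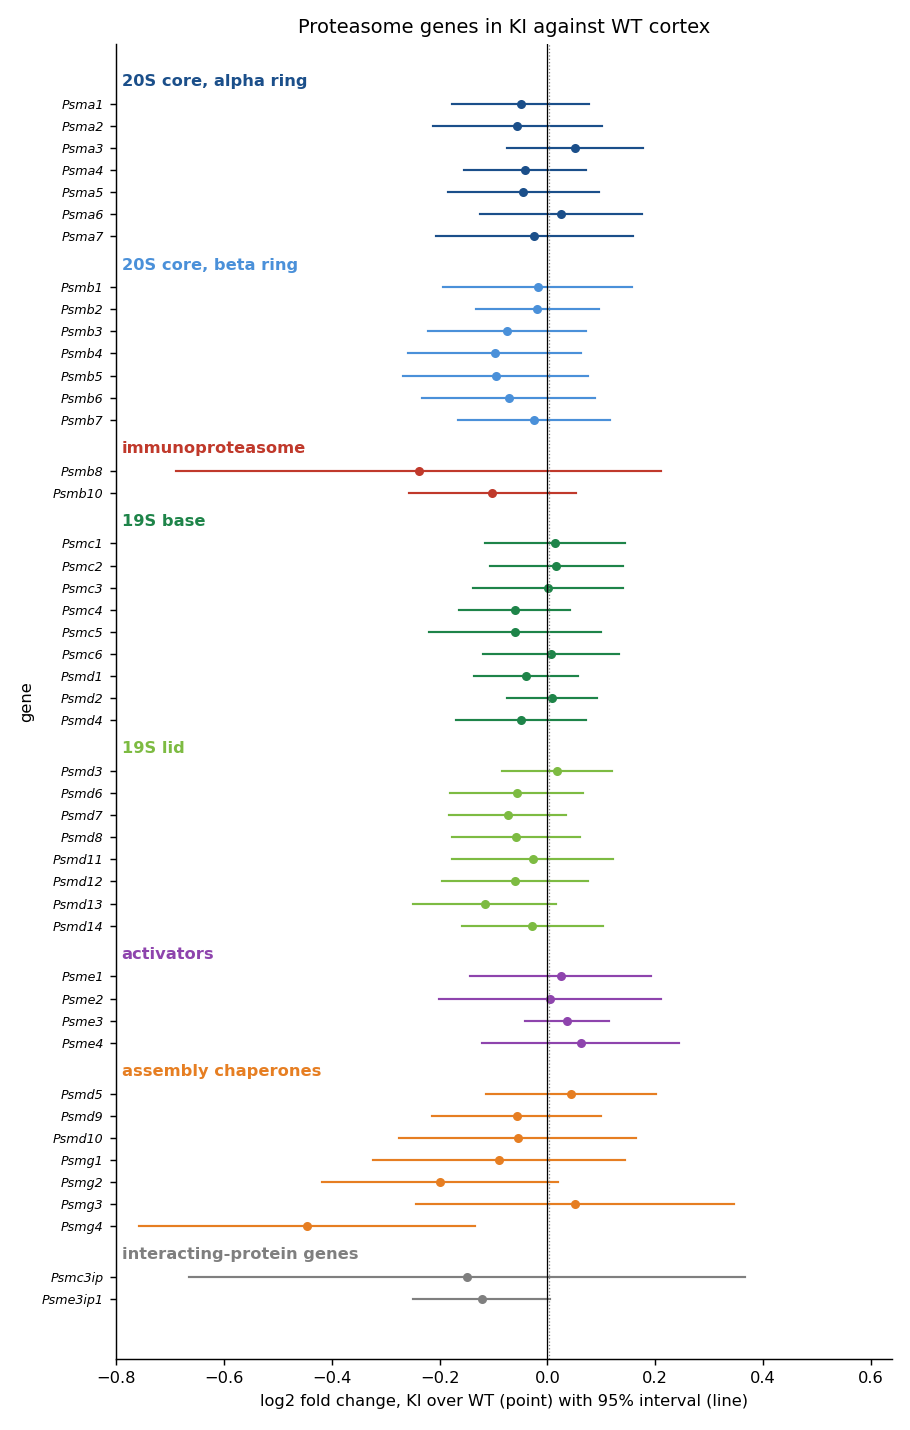
Log2 fold change of KI over WT (x axis, points) with 95% intervals (lines) for the 46 proteasome genes, grouped by role, with a solid line at 0 and a dotted line at the median of all genes. The interval of Psmg4 is the single one that does not include 0.

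**Figure D3:**
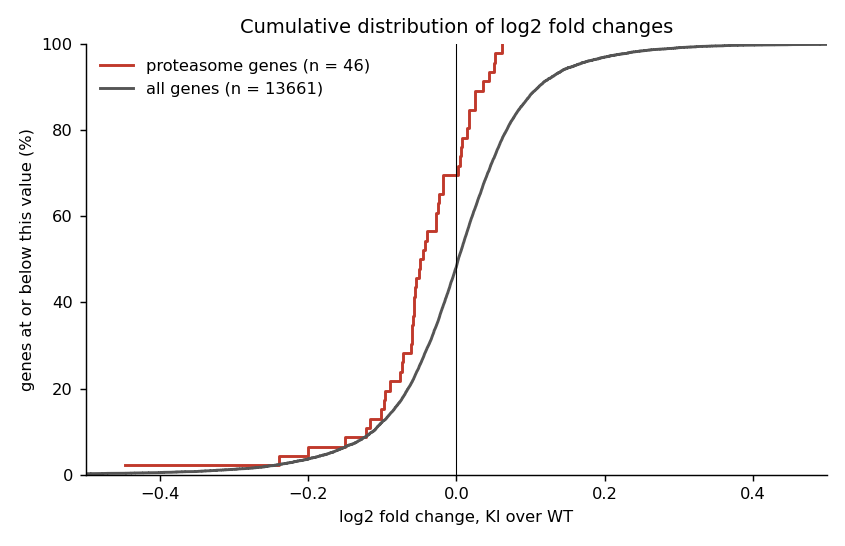
Share of genes (y axis, percent) at or below each log2 fold change of KI over WT (x axis) for the 46 proteasome genes and for all 13661 genes. The member curve crosses 0 at 69.6% and ends at 0.062, and the curve of all genes crosses 0 at 48.4%.

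The alpha ring, whose amino termini gate the entrance of the core, had 5 of 7 members below 0 (median log2 fold change -0.042). Its members lay within a narrow band. Psma2 stood lowest at -0.056 (SE 0.080) and Psma3 highest at 0.051 (0.064, unadjusted p = 0.426) in the authors' deposited table. Psma6 was the other positive member, at 0.025 (0.077) with a mean normalised count of 1397 in the authors' deposited table. The other 4 alpha genes, Psma1, Psma4, Psma5 and Psma7, lay from -0.050 to -0.024. All 7 alpha intervals lay within 0.25 of 0.

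The constitutive beta ring carries the proteolytic sites in Psmb5 (cleavage after hydrophobic residues), Psmb6 (after acidic residues) and Psmb7 (after basic residues). All 7 beta genes had a negative log2 fold change (median -0.072), and none passed the threshold. The trend on transcript length over all genes ran at a median of -0.034 for them. With that trend removed, 6 of 7 lay below it, at a median distance of -0.033. Psmb4, a structural subunit, stood at -0.098 (SE 0.082, unadjusted p = 0.233), the lowest of the ring in the authors' deposited table. Psmb5 stood at -0.096 (0.087, p = 0.27 unadjusted), with a mean normalised count of 1306 in the authors' deposited table. The 95% interval of Psmb5 reached from 16.9% lower to 5.33% higher in KI. Psmb6 stood at -0.072 (0.082) and Psmb7 at -0.026 (0.072), with mean normalised counts of 1356 and 2279 in the authors' deposited table. The structural subunits Psmb2 and Psmb3 stood at -0.019 (0.058) and -0.076 (0.075) in the authors' deposited table. Psmb1, at -0.018 (0.089), stood farthest above the ring's median in the authors' deposited table.

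Immunoproteasome subunits replace the constitutive catalytic subunits after interferon signalling and in immune cells. Psmb8, which takes the place of Psmb5, had 43.9 mean normalised counts and stood at -0.24 on the log2 scale (SE 0.23, unadjusted p = 0.298) in the authors' deposited table. Its interval ran from 37.9% lower to 15.8% higher, so its change was bounded only loosely. Psmb10, which takes the place of Psmb7, had 589.8 mean normalised counts and stood at -0.10 (0.079, unadjusted p = 0.195) in the authors' deposited table. Microglia markers, which mark the immune cells of the brain, showed 6 of 10 below 0, a median of -0.0055 and a range from -0.17 to 0.20. Their part in these values was not tested. In bulk tissue fewer cells of a type and less RNA per cell cannot be told apart.

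The base holds the 6 ATPases that unfold substrates (Psmc1 to Psmc6), the scaffolds Psmd1 and Psmd2 and the ubiquitin receptor Psmd4. Its median log2 fold change of 0.0015 was the closest to 0 of the groups, with 4 of 9 genes below 0. With the length trend removed, its median was 0.013, and that of the alpha ring was -0.0077. Psmd2, with the highest mean normalised count of all members (4651), stood at 0.0078 (SE 0.043) in the authors' deposited table, with an interval from 5.13% lower to 6.55% higher. Psmc2 stood at 0.016 (0.063) and Psmc4 lowest at -0.061 (0.053, unadjusted p = 0.246) in the authors' deposited table. Psmc5 lay beside it at -0.060 (0.081), and the other ATPases, Psmc1, Psmc3 and Psmc6, lay from 0.0015 to 0.014 in the authors' deposited table. Psmd1 and Psmd4 stood at -0.039 (0.049) and -0.048 (0.061) in the authors' deposited table.

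The lid, which removes ubiquitin chains through Psmd14, had 7 of 8 genes below 0 (median -0.058). Psmd13 was lowest at -0.12 (SE 0.068, unadjusted p = 0.0852), with a mean normalised count of 1472 in the authors' deposited table. Psmd7, the partner of Psmd14 in the lid, stood at -0.074 (0.055, unadjusted p = 0.184) in the authors' deposited table. Psmd14 itself stood at -0.028 (0.067), and Psmd12 at -0.060 (0.069), in the authors' deposited table. The structural subunits Psmd6, Psmd8 and Psmd11 lay from -0.058 to -0.028 in the authors' deposited table. Psmd3 was the single positive lid gene, at 0.017 (0.052) in the authors' deposited table. All 17 intervals of base and lid genes lay within 0.25 of 0. The difference between the lid and base medians was not tested.

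Activators were the one group with no negative member. Psme3, the nuclear PA28-gamma activator, stood at 0.036 (SE 0.040, unadjusted p = 0.359) and had the smallest SE of all members, with a mean normalised count of 2145 in the authors' deposited table. Its interval ran from 2.82% lower to 8.21% higher. Psme4 stood at 0.062 (0.093, unadjusted p = 0.508) in the authors' deposited table. Psme1 and Psme2, the interferon-inducible partners that form the PA28 alpha-beta ring, stood at 0.024 (0.085) and 0.0052 (0.10), with mean normalised counts of 536.8 and 240.0 in the authors' deposited table. None of the 4 passed the threshold, and the whole group lay within 1 SE of 0 for each gene.

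Assembly chaperones showed the widest spread, with an SD of 0.17 over the log2 fold changes of 7 genes. Psmg1 and Psmg2 act as a pair, as do Psmg3 and Psmg4, when the alpha ring is built. Psmg4 stood at -0.45 (SE 0.16, unadjusted p = 0.0050, DESeq2 adjusted p = 0.94) at 91.3 mean normalised counts in the authors' deposited table. Its interval ran from 40.9% to 8.90% lower in KI. Psmg2 stood at -0.20 (0.11, unadjusted p = 0.0743) and Psmg1 at -0.089 (0.12), with mean normalised counts of 222.7 and 202 in the authors' deposited table. Psmg3, the partner of Psmg4, stood at 0.051 (0.15) in the authors' deposited table, with an interval from 15.5% lower to 27.1% higher. The difference within the pair was not tested, since no values per library were analysed. Chaperones of the 19S base lay nearer to 0 than Psmg1, Psmg2 and Psmg4, though only Psmd5 lay nearer than Psmg3. Psmd5 stood at 0.044 (0.080), Psmd9 at -0.057 (0.080) and Psmd10, also called gankyrin, at -0.055 (0.11) in the authors' deposited table. Psmg4 (chr13:34162964-34178172) shared no exonic bases with another GENCODE M21 gene.

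The 2 genes that carry a subunit's name but encode interacting proteins were both below 0. Psme3ip1, whose product binds PA28-gamma, stood at -0.12 (SE 0.065, unadjusted p = 0.0581), the second smallest p among members, in the authors' deposited table. Psmc3ip, known for a role in meiotic recombination, stood at -0.15 (0.26) with a mean normalised count of 43.9 in the authors' deposited table. Without both, 30 of 44 members were below 0 and the median was -0.043.

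The promoters of the members with the smallest p in each direction are given for reference, 250 bases before the start, with matches of the 3 motifs in capitals.
Psmg4, chr13:34162714-34162963, plus strand: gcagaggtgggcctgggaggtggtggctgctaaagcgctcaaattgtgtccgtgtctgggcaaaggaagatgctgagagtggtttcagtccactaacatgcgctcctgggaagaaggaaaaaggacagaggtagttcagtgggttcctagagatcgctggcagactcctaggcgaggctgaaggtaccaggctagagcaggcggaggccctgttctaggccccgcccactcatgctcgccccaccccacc
Psme3ip1, chr8:94601727-94601976, minus strand: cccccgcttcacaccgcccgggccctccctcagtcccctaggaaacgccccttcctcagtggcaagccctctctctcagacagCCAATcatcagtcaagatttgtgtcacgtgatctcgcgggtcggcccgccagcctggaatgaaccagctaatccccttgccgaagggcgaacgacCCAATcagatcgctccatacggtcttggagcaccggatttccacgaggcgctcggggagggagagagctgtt
Psme3, chr11:101315963-101316212, plus strand: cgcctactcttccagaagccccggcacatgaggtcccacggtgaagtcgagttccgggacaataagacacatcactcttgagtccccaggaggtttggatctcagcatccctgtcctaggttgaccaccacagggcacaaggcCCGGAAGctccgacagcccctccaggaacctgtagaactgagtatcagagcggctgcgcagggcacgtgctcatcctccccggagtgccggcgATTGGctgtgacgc
Psma3, chr12:70974373-70974622, plus strand: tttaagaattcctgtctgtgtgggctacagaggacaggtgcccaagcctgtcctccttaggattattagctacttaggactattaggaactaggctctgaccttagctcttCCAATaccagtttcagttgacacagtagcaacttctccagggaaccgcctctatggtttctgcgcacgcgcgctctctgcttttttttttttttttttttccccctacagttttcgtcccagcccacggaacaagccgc
The Psmg4 stretch holds none of the 3 motifs. The Psme3 stretch holds 1 ETS match and 1 CCAAT box on the other strand. For Psma3, Psmd2 and Psme3ip1 the start in the promoter table lies 5340, 530 and 236 bases from the annotated start of the gene. The Psma3 stretch shown lies inside the annotated gene.
Among the 12 members with an ETS match, 6 were below 0 and the median log2 fold change was -0.011. Among the 27 members without one, 21 were below 0 and the median was -0.056. With an ARE match, 4 of 5 were below 0 (median -0.060), against 23 of 34 without (median -0.047). With a CCAAT box, 9 of 14 were below 0 (median -0.038), against 18 of 25 without (median -0.057). Motif and sub-complex are not independent here, so the 2 cannot be told apart. ETS matches stand mostly in 19S and activator genes, also in Psmg1 and Psmc3ip, and not in core genes.

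Transcript length moved with the fold changes. Across 13098 genes, which are not independent replicates, log2 fold change and the longest annotated transcript had a Spearman correlation of 0.236. Proteasome transcripts are short, with a median longest transcript of 1851 bases, against 3565 bases over all genes with a length. The trend over all genes ran at a median of -0.020 for the members' lengths. Of the members, 30 of 46 lay below the trend, against 50.3% of all genes. Across the 46 members, which share libraries, the same correlation was 0.457. Psmg4 had the shortest transcript of all members (555 bases), and its distance from the trend was still -0.39. Psme4 had the longest (6491 bases) and stood 0.040 above the trend.

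**Figure D4:**
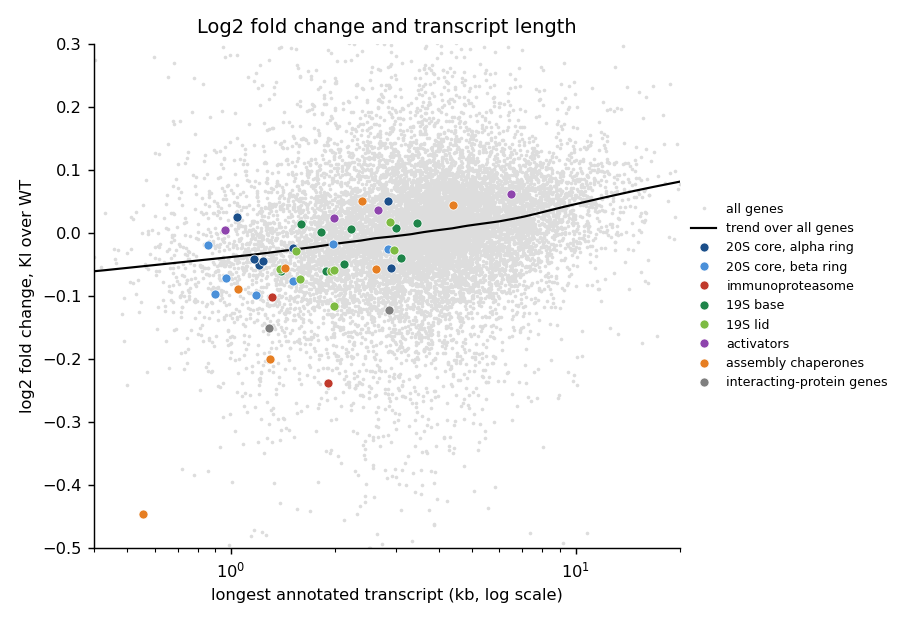
Log2 fold change of KI over WT (y axis) against the longest annotated transcript (x axis, kb, log scale) for all genes (grey), with the trend over all genes (black line) and the 46 proteasome genes coloured by role. Psmg4 lies at the lower left, far below the line, while most other members lie close to it. Genes outside the plotted ranges are not drawn.

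Levels were compared per length, as the mean normalised count per kb of transcript, over KI and WT libraries together. On the median transcript length of each gene, structural subunits ran from 581.3 per kb for Psmc2 to 7057 for Psmd2. The order depended on the length used, since annotated transcripts of a gene such as Psmd2 include short fragments (median 659 bases, longest 3001). On the longest transcript, Psmc5 was the most abundant structural subunit at 1956 per kb and Psmd11 the least at 332.8. The beta subunit Psmb4 stood at 3284 per kb on the median length and 1807 on the longest, the highest of its ring on both, but with all exons joined Psmb5 was highest, at 1452 per kb against 1096 for Psmb4. Psma6 led the alpha ring on each length, at 1642, 1340.3 and 1132 per kb.

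Psmb8 had the lowest level of all members on each length. It stood at 35.5 per kb, 2.07% of the level of Psmb5, and at 1.58% on the longest transcript and 0.893% with all exons joined. Psmb10 reached 748.4 per kb, 65.8% of the level of Psmb7, and 56.2% and 51.9% on the other 2 lengths. It lay above 3 of 31 structural subunits on the median length, 5 on the longest and 4 with all exons joined. The 4 Psmg genes ran from 177.4 to 257.3 per kb, below all 31 structural subunits on the median and on the longest length. With all exons joined, 1 structural subunit, Psmd11, lay below the highest of them. Psme3 exceeded Psme1 and Psme2 on each length, at 3074 per kb against 761.5 and 405.7 on the median length. Neighbours in these orders could not be told apart, since the authors' means carry no SD here.

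**Figure D5:**
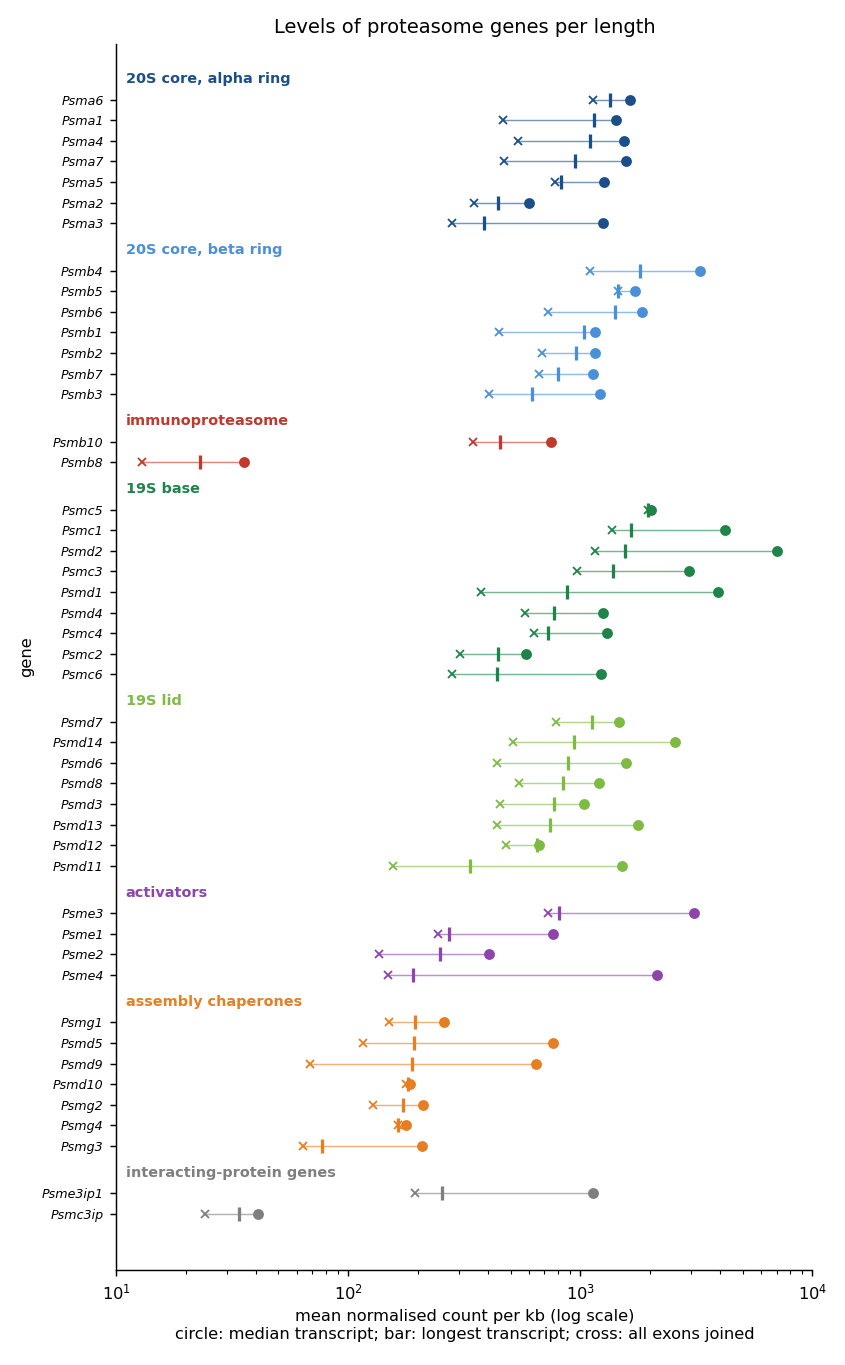
Mean normalised count per kb over all libraries (x axis, log scale) for the 46 proteasome genes, with a circle for the median transcript length, a bar for the longest transcript and a cross for all exons joined. Psmb8 and Psmc3ip lie far to the left of the other members on each length.

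Members near Chd8 on chromosome 14 were set apart by position. Psmb5 lies 2.36 Mb from Chd8, and Psme1 and Psme2 lie 3.32 and 3.33 Mb from it in the GRCm38 annotation. Their values were -0.096, 0.024 and 0.0052 on the log2 scale in the authors' deposited table, none past the threshold. No member lay on chromosome 6, which carries Gt(ROSA)26Sor.

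Genes that work with the proteasome but do not carry its name were counted from 6 lists. Of 70 genes tested, 35 were below 0 and 35 above (50% below, against 48.4% of all genes). None passed an adjusted p of 0.05, where 0.0732% of all genes passed. An unadjusted p under 0.05 was found for 1 of the 70, where 3.22% of all genes had one. That gene was Uchl5, a deubiquitinase bound to the 19S base, at -0.21 (SE 0.082, unadjusted p = 0.0089, DESeq2 adjusted p = 0.9999) in the authors' deposited table. Its interval lay below 0. Adrm1, the base subunit that holds Uchl5, stood at -0.013 (0.054), and Usp14, the other deubiquitinase of the base, at 0.024 (0.055), in the authors' deposited table. Among 14 further subunits, assembly factors and regulators, 7 were below 0 (median 0.0040).

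The list of shuttle factors and the VCP segregase had 5 of 12 genes below 0 (median 0.0042), led by Faf2 at 0.068 (SE 0.069) and Ubqln1 at -0.033 (0.035) in the authors' deposited table. The list around NFE2L1 and NF-Y had 9 of 13 below 0 (median -0.019), with Nfe2l1 itself at 0.034 (0.035) and Sel1l at -0.044 (0.047) in the authors' deposited table. Ubiquitin genes and activating, conjugating or deubiquitinating enzymes had 4 of 11 below 0 (median 0.0058). Among them, Uba6 stood at 0.075 (0.083) and the deubiquitinase Usp9x at 0.055 (0.079) in the authors' deposited table. Antigen processing and interferon genes, which are induced with the immunoproteasome, had 5 of 11 below 0 (median 0.018), with H2-D1 at 0.098 (0.096) and B2m at 0.057 (0.065) in the authors' deposited table. The log2 fold changes of that list ran from -0.18 to 0.098. The COP9 signalosome, a complex related to the lid, had 5 of 9 below 0 (median -0.011), with Cops8 at -0.067 (0.058) and Cops7b at 0.057 (0.074) in the authors' deposited table. None of these 56 genes had an unadjusted p under 0.05.

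Some members share exonic bases with a neighbour, and the sources used here do not say whether counting was stranded. In GENCODE M21, 14 of the 46 members shared exonic bases with another gene. The largest shares were those of Psmd9 with Gm26745 (25.5% of its exonic bases), Psmc3ip with Mlx (21.2%), Psmb8 with Gm20496 (14.7%), Psmb5 with Mir686 (12.1%), Psmb7 with Nek6 (11.8%) and Psmd13 with Sirt3 (10.1%). Values of these genes can include reads of their partners or lack reads from the shared bases, since the counting settings are not known.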

How the data were processed

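RNA-seq of adult mouse cortex was analysed from 1 table in which the authors had compared 5 KI and 5 WT libraries, grouped by their titles. The submitters' processing notes name Trimmomatic 0.39, HISAT2 2.1.0, featureCounts 2.0.0 and DESeq2 1.26.0, and build mm10. Of settings, annotation, filters and model formula the sources used here say nothing. The authors' deposited table gives, per the file headers, a signal value per gene (the mean normalised count over all libraries), a log2 fold change with its standard error (also log2), a Wald score, and a p-value with its adjusted p-value. Dividing each log2 fold change by its error gave the Wald score in all 13661 deposited rows, and the adjusted p-value equalled a Benjamini-Hochberg value in all 13660 with a p (tolerance 1e-6). Depth per library is unknown.

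Symbols came from RefSeq GRCm38.p6 for 13497 gene numbers and GENCODE M21 for 2 more, and 162 stayed unnamed. Transcript lengths came from GENCODE M21 for all 46 members. Intervals are 95% normal intervals from the deposited errors. Length and count trends were lowess fits (fraction 0.3, statsmodels 0.14.6 in Python 3.11.15) over all genes, and this step and the adjustment were tested on simulated data. The deposited Wald test is the test used, at an adjusted p of 0.05 over all genes, and lists are described by counts and medians. P-values set each fold change against its error, which was estimated over these libraries.

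The members and lists were chosen with earlier results of these data known. Genes with full values followed a rule: the 6 members a direction with the smallest p, immunoproteasome subunits and their counterparts, activators, the extremes of each sub-complex, members within 5 Mb of Chd8, and list genes with an unadjusted p under 0.05 or else the 2 smallest. Psme3ip1, Psmc3ip, Adrm1 and Usp14 were also given as background to a result. Motifs were picked after the values were seen. Alternatives were other thresholds (0.1, 0.01, unadjusted), count minimums of 50 and 200, other summaries, trends removed, structural subunits alone and other lengths.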

Additional observations from a re-analysis of the deposited data

How the results depend on the processing

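No member passed at adjusted thresholds of 0.1 or 0.01, or with Benjamini-Hochberg values recomputed after dropping genes under 50 or under 200 mean normalised counts. At an unadjusted p under 0.05 the count was 1, Psmg4. The median log2 fold change of -0.047 kept its sign under the 7 alternatives run, from -0.050 with the mean count trend removed and -0.051 as a mean to -0.032 as an inverse-variance weighted mean and -0.025 with the length trend removed. Members below 0 numbered 32, against 33 below the median of all genes, 30 below the length trend and 34 below the count trend, the last added after seeing the data. The order of members by level per length depended on the length: its Spearman correlation with the order on the median length was 0.789 for the longest transcript and 0.718 for all exons joined, a length added after seeing the data. The 8 members with mean normalised counts under 300 had the widest errors. No paired analysis was possible because the analysed columns carry no replicate numbers. Fits that need counts per library (another tool, leaving out a library) were not run.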
